A study of Mus musculus with 12 samples.

Results

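Vascular smooth muscle cells grown from the aorta of 6-week-old C57BL/6 mice were profiled by RNA immunoprecipitation and sequencing (RIP-seq) with an antibody against Thoc2, once at passage 3 and once at passage 10. The quantity described here is the change in Thoc2 enrichment between these passages. Enrichment was the log2 ratio of the level of a gene in the Thoc2 immunoprecipitate to its level in the input of the same passage, with levels as reads of the gene scaled to the library total (CPM) and 0.5 CPM added to both. The change was the value at passage 10 minus the value at passage 3. It was computed for the 7896 genes that had at least 50 reads in each of the 4 libraries, out of 15352 genes listed in any RIP-seq table and 12933 listed in both Thoc2 tables. The series holds 12 samples, among them 6 RIP-seq libraries, with RNA sequencing and chromatin immunoprecipitation making up the rest. The input libraries were made without an antibody and the other RIP-seq libraries with antibodies against Thoc2 or Thoc5. The RIP-seq cells were primary and the labels give no treatment for them, so their groups differ by label in passage and antibody. For a few genes 2 RNA-seq libraries are set beside them, from cells at passages 4 to 8 that were infected with a non-targeting hairpin and prepared without immunoprecipitation. Each combination had 1 library, no library with a control antibody was analysed here, and the labels do not say whether the passages came from the same animals. There was therefore no replicate check and no test, and a fold of 2 served as a mark of size.

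Thoc2 is the large scaffold subunit of the THO complex, which associates with elongating RNA polymerase II, packages nascent RNA and hands it to the export machinery of the nucleus. In yeast, THO is known for long and highly transcribed genes, and in mammals Thoc2 and Thoc5 are known for the export of selected mRNAs. Aortic smooth muscle cells carry a contractile programme of actin, myosin and their regulators, and in culture they lose part of it as they divide. RIP-seq reports which RNAs come down with a protein relative to the RNA that went in, so a change in enrichment can come from the immunoprecipitate, from the input or from both.

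The 4 libraries held between 5396291 reads (Thoc2 at passage 3) and 36336141 reads (input at passage 3), so the minimum of 50 reads stood for 9.27 CPM in the Thoc2 library of passage 3 and for 1.38 CPM in its input. Ribosomal RNA made up 18.0% of the Thoc2 library at passage 3, against 0.873% at passage 10 and less than 1% in both inputs. The defining smooth muscle markers Acta2, Tagln, Cnn1, Myh11, Smtn and Lmod1 were present in each library, and they did not move together between the inputs. Acta2 stood at 2091 CPM in the passage 3 input and 4549 CPM in the passage 10 input, and Cnn1, Smtn and Lmod1 were also higher in the latter. Tagln went from 2194 to 1359 CPM and Myh11 from 6.72 to 3.05 CPM. The summed level of 18 macrophage and leukocyte markers was 290 CPM in the passage 3 input and 54.6 CPM in the passage 10 input, and Adgre1 was not listed at passage 10. Between the same inputs the summed level of 14 adventitial fibroblast markers went from 5102 to 1362 CPM. The single markers of this list did not move together. Dcn went from 1041 to 13.8 CPM and Dpt from 15.5 to 1.26 CPM, while Pdgfra went from 71.4 to 67.5 CPM and Gsn from 291 to 347 CPM. The summed level of 17 endothelial markers, of which 16 were listed, went from 598 to 280 CPM. That of 15 chondrocyte and bone markers, of which 11 were listed, went from 219 to 532 CPM. The summed level of 26 heart muscle markers was 46.7 CPM in the passage 3 input, 350 CPM in its Thoc2 immunoprecipitate, 80.5 CPM in the passage 10 input and 109 CPM in its immunoprecipitate. Of the heart muscle markers, 25 exceeded 1 CPM in the Thoc2 library of passage 3 and 8 did so in its input. The adipocyte markers Adipoq and Plin1 and the epithelial marker Epcam were not listed. In such bulk samples fewer cells of a type and less RNA per cell cannot be told apart. The part of any of these in the results was not tested.

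Enrichment with Thoc2 was less spread out at passage 10. Its standard deviation over the 7896 genes was 1.18 on the log2 scale at passage 3 and 0.82 at passage 10, and 72.9% of genes lay nearer to 0 at the later passage. The order of genes was much the same, with a Pearson coefficient of 0.88 and a Spearman coefficient of 0.88 across genes, which are not independent replicates. The median change was 0.11, the interquartile range ran from -0.26 to 0.46, and the full range from -5.34 to 3.49. A change of at least 1 was seen in 360 genes, which is 4.56% of those measured, and a change of at most -1 in 298 genes, or 3.77%. These counts depended on how the libraries were scaled. Leaving ribosomal RNA and mitochondrial genes out of the totals moved the median to -0.13 and the counts to 131 higher and 537 lower, so that the share of higher genes among those past the fold went from 54.7% to 19.6%. With DESeq2 size factors this share was 39.4%. Calls were therefore read relative to the median of all genes. A gene is called higher at passage 10 below when its change was 1.11 or more and lower when it was -0.89 or less. The minimum of reads mattered as well. With 10 CPM in each library in its place, 315 genes lay at 1 or above and 138 at -1 or below, a share of higher genes of 69.5%. By the rule relative to the median 236 genes were higher (2.99%) and 370 were lower (4.69%), and with ribosomal RNA and mitochondrial genes left out of the totals the counts were 239 and 371. With 10 CPM in each library they were 168 and 205. The calls of each list below stand beside the shares over all genes, 2.99% higher and 4.69% lower.

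The genes past the fold are described next by the enrichment values that make up the change, so that a low start is favoured among the higher genes and a high start among the lower ones, and no more is read from them. The 360 genes with a change of at least 1 had a median enrichment of -1.91 at passage 3 and -0.70 at passage 10, and 329 of them lay nearer to 0 at passage 10. The 298 genes with a change of at most -1 had a median of 2.14 at passage 3 and 0.62 at passage 10, and 287 of them lay nearer to 0. Among the 360, the input was lower at passage 10 for 241 genes, against 2745 of all 7896. The immunoprecipitate was higher for 272 of them, against 5425 of all genes. Among the 298, the median log2 change of the input was 1.36 and that of the immunoprecipitate was -0.11. A log2 enrichment of at least 1 was reached by 1552 genes at passage 3 (19.7%), by 1080 at passage 10 (13.7%) and by 950 at both (12%). A further 602 genes passed this threshold at passage 3 and fell under it at passage 10, whereas 130 genes did the reverse.

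**Figure D1:**
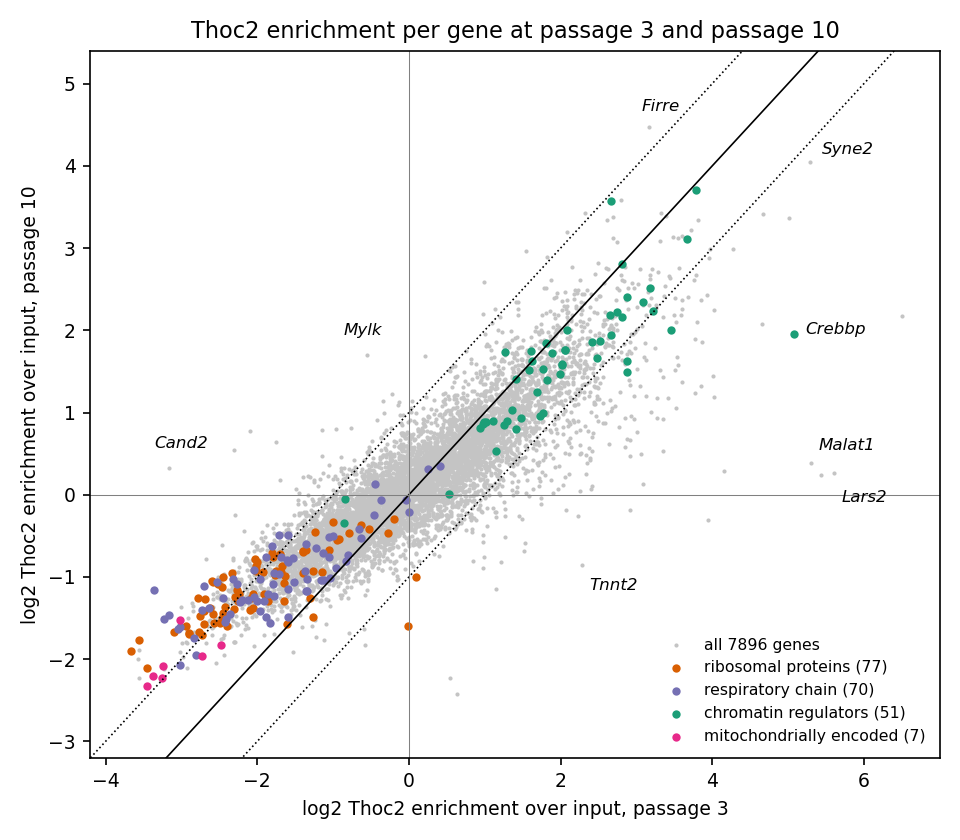
Log2 Thoc2 enrichment over input at passage 3 (horizontal) and at passage 10 (vertical), 1 point per gene, with 4 gene lists coloured. The solid line marks equal enrichment and the dotted lines a change of 1 in either direction. Ribosomal protein, respiratory chain and mitochondrially encoded genes lie at the lower left and mostly above the solid line, chromatin regulators lie at the upper right and mostly below it, and Malat1 and Lars2 lie far below it.

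Gene length ordered the change. The length, in bases, was the one the authors list per gene, and 7815 of the genes had one. In the shortest quintile of genes, from 98 to 1778 bases, the median log2 enrichment was -1.03 at passage 3 and -0.61 at passage 10, and the median change was 0.46. The median change was 0.21 in the next quintile, then 0.08, then 0.01. In the longest quintile, from 5110 to 23242 bases, median enrichment was 1.11 at passage 3 and 0.89 at passage 10, and the median change was -0.19. A change of at least 1 was seen in 204 genes of the shortest quintile and 24 of the longest, and a change of at most -1 in 24 and 111. Long RNAs were thus more enriched than short RNAs at both passages, by a smaller margin at passage 10.

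The level of a gene in the input also went with the change. From the lowest to the highest quintile of mean input CPM the median change was -0.15, 0.03, 0.12, 0.17 and 0.31. The gap between the shortest and the longest genes was 0.11 in the lowest quintile of input level, where 111 short genes were measured, and it was 0.43, 0.58, 0.66 and 0.86 in the higher ones. Genes of low level must pass 50 reads in the shallow Thoc2 library of passage 3. Of the 5037 genes that were listed in both tables but missed the minimum, 4147 (82.3%) had their fewest reads in that library. With a minimum of 10 CPM in each library in place of 50 reads, a choice made after seeing the data, the median change still went from 0.48 in the shortest quintile to -0.15 in the longest, with a gap of 0.25 at the lowest level.

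The immunoprecipitates of Thoc5, another THO subunit, were divided by the same inputs, so their values share those libraries and are not independent. Median Thoc5 enrichment in the shortest quintile was -0.50 at passage 3 and -0.43 at passage 10. In the longest quintile it was 0.84 and 0.59. The median Thoc5 change was 0.10 in the shortest quintile and -0.27 in the longest.

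**Figure D2:**
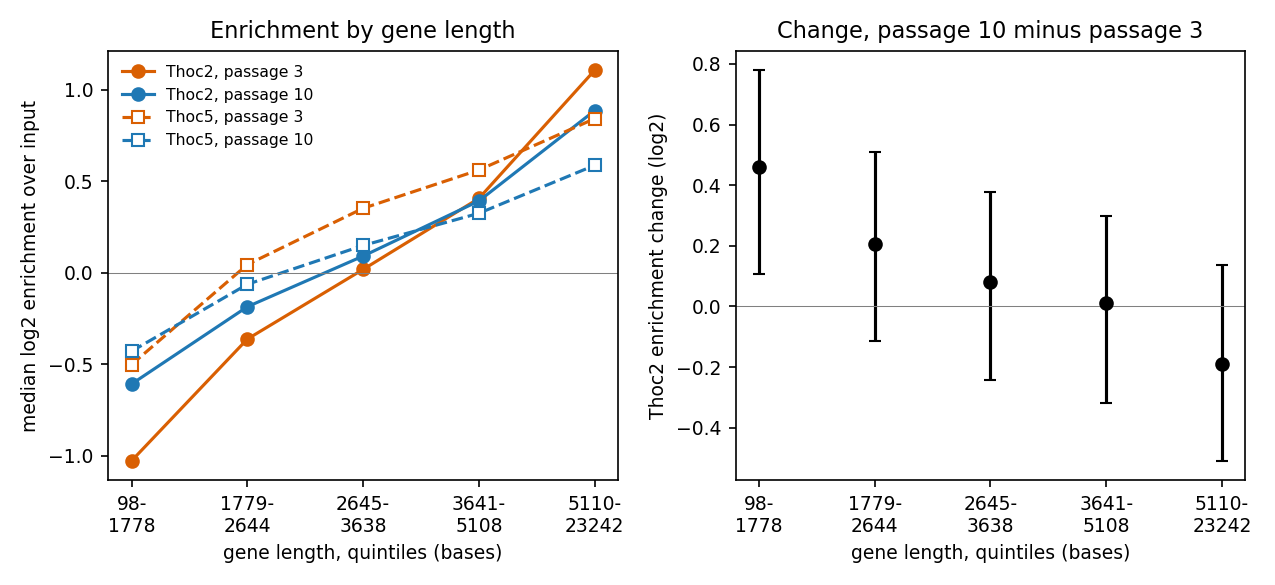
Left, median log2 enrichment over input in quintiles of gene length for Thoc2 (filled circles) and Thoc5 (open squares) at passage 3 (orange) and passage 10 (blue). Right, the Thoc2 enrichment change per quintile, with the median as a point and the interquartile range as a bar, which falls from 0.46 in the shortest quintile to -0.19 in the longest.

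Ribosomal protein genes, whose short and abundant mRNAs make up the protein part of the cytosolic ribosome, were the list with the most genes called higher. Of 85 such genes 77 had 50 reads in each library. Their median log2 enrichment was -2.01 at passage 3 and -1.16 at passage 10, and none reached 1 at either passage. Their median change was 0.93, against 0.11 for all genes. They held 24 genes called higher and 2 called lower, and 70 of the 77 were above the median of all genes. Rps21, a protein of the small subunit, stood at 1127 CPM in the passage 3 input and 94.7 CPM in its immunoprecipitate. At passage 10 it stood at 684 and 201 CPM. Its depletion thus shrank at passage 10, and the ratio of immunoprecipitate to input was 3.50-fold higher (95% interval 3.18 to 3.86). The intervals given here are exact conditional intervals on the read counts, without the added 0.5 CPM, and they cover counting error only. Rps12, also of the small subunit, changed by 1.76. The 2 lower genes were Rps27l (-1.59), a p53-induced paralogue of Rps27 caught by the name pattern, and Rps7 (-1.09). Ribosomal protein genes have many processed pseudogenes and near-identical paralogues, so their counts are uncertain.

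Within the shortest quintile of length, 70 ribosomal protein genes had a median change of 0.96 and the other 1493 genes one of 0.44. Level went with this too, since the 501 genes of the shortest quintile that were also in the highest quintile of input level, ribosomal protein genes included, had a median of 0.67. Many ribosomal protein mRNAs are known to begin with a 5′ terminal oligopyrimidine tract, a run of C and T after a C at the first base, through which their translation is controlled. Such a tract, taken as a C followed by at least 4 further C or T bases on the transcript strand at the annotated start, was found in 13 of 58 ribosomal protein genes with a RefSeq start (22.4%). It was found in 3.01% of 27025 genes. The first 20 bases of the following 5 are shown, the genes with a tract that had the highest changes and the 1 that had the lowest. Those between are not shown, and capitals mark the tract. They come from RefSeq on GRCm38.p6, with Rps21 on the plus strand of chromosome 2, Rps10 on the minus strand of chromosome 17, Rps27 on the minus strand of chromosome 3, Rpl35a on the plus strand of chromosome 16 and Rpl38 on the plus strand of chromosome 11.
Rps21: CTCCTgcccaatagtgctgc
Rps10: CTTCCTTTCCagcctccgcc
Rps27: CCTTTCCggcggtgacgacc
Rpl35a: CTCTTTCCgccatcttggcg
Rpl38: CTTTCCCCgttctcttcggt
Their changes were 1.80 for Rps21, 1.53 for Rps10, 1.28 for Rps27, 1.25 for Rpl35a, which overlaps Iqcg, and 0.34 for Rpl38. Rps10 and Rpl38 have longer tracts than Rps21 and lie near opposite ends of this range. The median change was 0.93 for ribosomal protein genes with a tract at the annotated start and 0.98 for those without one. Among ribosomal protein genes the 2 medians were thus close in these windows, which depend on the annotated start. Among the other genes of the shortest quintile the median change was 0.32 for the 39 with a tract and 0.46 for those without one. Over all measured genes with a RefSeq start it was 0.10 for both.

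Nuclear genes of the respiratory chain and the ATP synthase, also short and abundant, moved in the same direction. Of 80 genes 70 were measured, with a median enrichment of -1.74 at passage 3 and -1.04 at passage 10. The median change was 0.73, with 17 genes called higher and 0 called lower. In this group the largest change was that of Ndufb6, a subunit of complex I. It stood at 121 CPM in the input and 11.3 CPM in the immunoprecipitate at passage 3, and at 42.2 and 18.6 CPM at passage 10, a ratio 4.72-fold higher (3.53 to 6.38). Cox7c, of complex IV, changed by 1.72. Sdha of complex II, at -0.05, had one of the lowest values. Within the shortest quintile of length, 62 respiratory chain genes had a median change of 0.79 and other genes one of 0.45.

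The mRNAs that the mitochondrial genome itself encodes were among the most depleted RNAs at both passages. The 7 measured had a median enrichment of -3.25 at passage 3 and -2.08 at passage 10, a median change of 1.12, and 4 of them were called higher. ND6, which is read from the opposite strand to most mitochondrial genes, changed by 1.49 and overlaps ND5, so it is uncertain. COX1 stood at 13664 CPM in the passage 3 input and 2065 CPM in its immunoprecipitate, and at 5515 and 1417 CPM at passage 10. COX1 was thus less depleted at passage 10, where its input level was also lower.

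Other housekeeping mRNAs moved less. Mitochondrial ribosomal protein genes had a median change of 0.39 over 57 genes, with 3 higher and 1 lower, and in the shortest quintile of length their median of 0.47 was close to the 0.46 of other genes. With a minimum of 200 reads 4 of them were left, whose median minus that of all genes was -0.74. Proteasome subunits had a median of 0.37 over 35 genes, with 1 higher. Translation factors, with a median length of 2333 bases, had a median change of 0.19 over 58 genes. Among the latter, Eef1e1, an accessory protein of the aminoacyl-tRNA synthetase complex, was higher (1.22). Eif5b, a GTPase that joins the ribosomal subunits, and Eif3a, the scaffold of the initiation factor eIF3, were lower. Eif5b changed by -2.31 and its span overlaps that of Rev1, and Eif3a changed by -1.59. With 7797 and 5176 bases these 2 genes belong to the longest quintile of length.

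**Figure D3:**
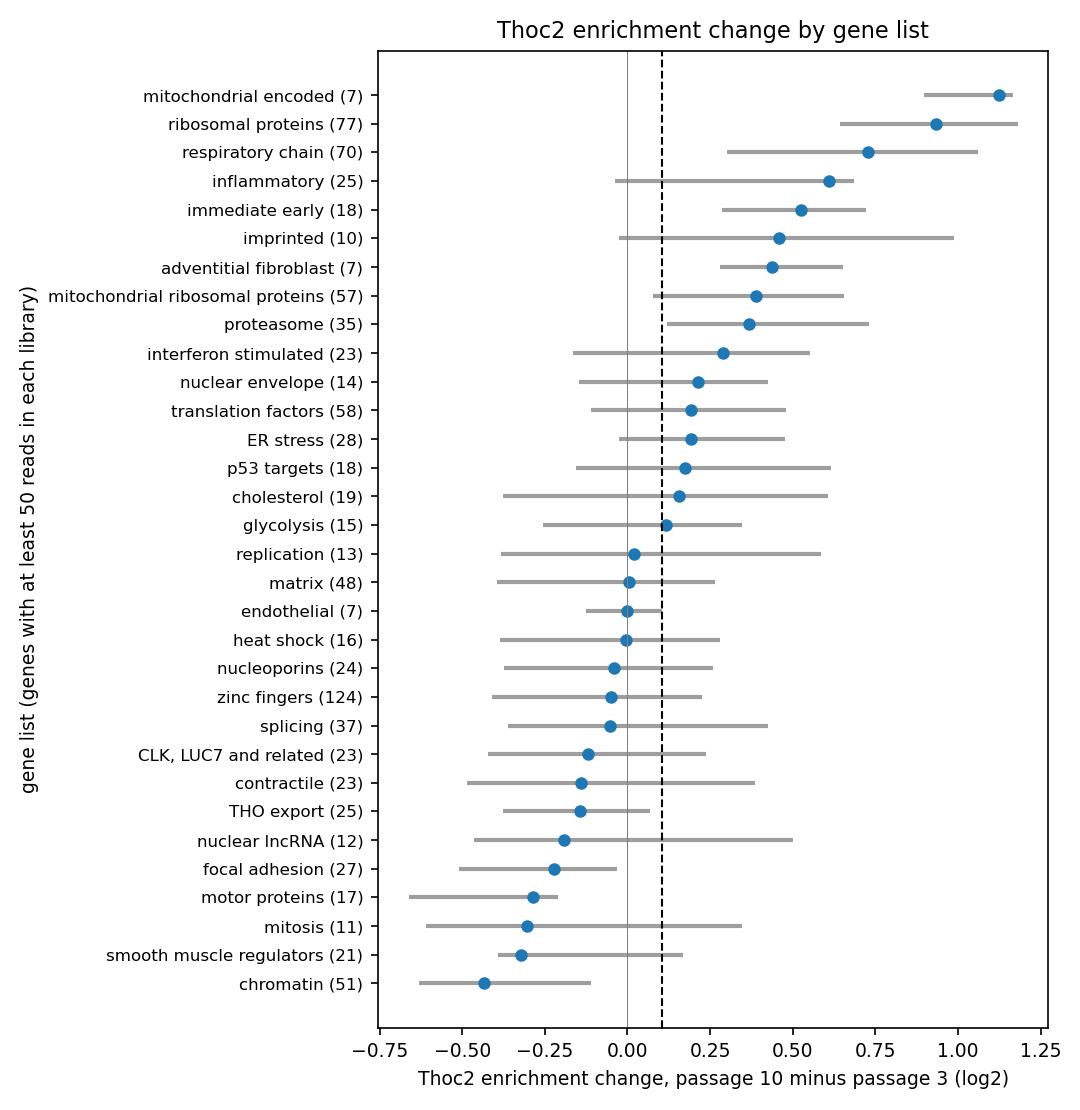
Thoc2 enrichment change in 32 gene lists with at least 5 measured genes, with the median as a point, the interquartile range as a bar and the number of genes in brackets. The dashed line is the median of all genes, 0.11. Mitochondrially encoded, ribosomal protein and respiratory chain genes lie at the upper end and chromatin regulators at the lower end, with a median of -0.44.

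At the other end stood chromatin regulators, the histone modifiers and remodellers whose mRNAs are long. Of 55 genes 51 were measured, with a median length of 7268 bases. Their median enrichment was 1.89 at passage 3 and 1.63 at passage 10, and 45 of them reached 1 at passage 3 and 36 at passage 10. Their median change was -0.44, with 0 genes higher, 5 lower and 5 above the median of all genes. Within the longest quintile of length, 42 of them had a median change of -0.46 and the other 1521 genes one of -0.18. Crebbp, a histone acetyltransferase and coactivator, stood at 3.52 CPM in the passage 3 input and 135 CPM in its immunoprecipitate. At passage 10 it stood at 44.5 and 174 CPM. The immunoprecipitate thus barely moved while the input rose, and the ratio was 9.84-fold lower (8.01 to 12.2). Bptf, the largest subunit of the nucleosome remodelling factor NURF, changed by -1.46. The other 3 lower genes, named after their values were seen, were Arid1a, a subunit of SWI/SNF remodellers (-1.39), and the chromodomain helicases Chd9 (-1.24) and Chd2 (-0.98), the latter with an overlap with 1810026B05Rik. Tet2, which oxidises methylated cytosine, had the highest change of the group, 0.91. It stood at 5.67 CPM in the passage 3 input and 38.7 CPM in its immunoprecipitate, and at 3.89 and 51.8 CPM at passage 10.

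Further long mRNAs had the same tendency. Dynein heavy chain, kinesin and myosin genes had a median change of -0.29 over 17 genes, of which 1 was above the median of all genes. Myo9a, an unconventional myosin, was lower (-1.03), as was Myh10, the heavy chain of non-muscle myosin IIB (-0.95). Focal adhesion linkers had a median of -0.22 over 27 genes with 1 lower. That gene was Dst, which encodes the giant cytoskeletal linker dystonin and overlaps Bend6. Dst stood at 83.8 and 2724 CPM in input and immunoprecipitate at passage 3 and at 138 and 1424 CPM at passage 10, so it stayed strongly enriched, with a change of -1.65. Syne2, which encodes the giant nuclear envelope protein nesprin-2, had nearly the same input level at the passages, 16.4 and 16.7 CPM, and 664 and 282 CPM in the immunoprecipitates. Its change of -1.25 thus lay in the immunoprecipitate.

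Several non-coding RNAs had very low values. The nuclear RNA Malat1, which collects in nuclear speckles, stood at 50.6 CPM in the passage 3 input and 2020 CPM in its immunoprecipitate, and at 220 and 288 CPM at passage 10. Its log2 enrichment was 5.30 and then 0.39, a ratio 30.4-fold lower (28.5 to 32.5). Its Thoc5 change was -5.66. The 28S ribosomal RNA gene Rn28s1 went from an enrichment of 5.44 to 0.24 and the 18S gene Rn18s from 4.15 to 0.28. The mitochondrial ribosomal RNAs Rnr1 and Rnr2 went from 0.63 and 0.54 to -2.43 and -2.22, opposite in direction to the mRNAs of the same genome. Lars2 had the lowest change of all genes with a symbol, -5.34. It encodes the mitochondrial leucyl-tRNA synthetase, and its annotated transcript is known to hold a stretch resembling ribosomal RNA, so its counts are uncertain. It stood at 295 and 14392 CPM at passage 3 and at 151 and 181 CPM at passage 10, which made up 1.44% of the reads of the Thoc2 library at passage 3 and 0.0181% at passage 10. These RNAs moved with the ribosomal RNA share of that library, and the part of that share was not tested.

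Of the long non-coding RNAs 12 were measured, and Malat1 was the 1 called lower. Firre, an X-linked RNA that stays on chromatin, was called higher and was the most enriched of all 7896 genes at passage 10. It stood at 3.44 CPM in the input and 34.8 CPM in the immunoprecipitate at passage 3, and at 6.62 and 158 CPM at passage 10. Its ratio was 2.35-fold higher (1.74 to 3.17), while its Thoc5 change was -1.84. Meg3, an imprinted RNA that overlaps Rtl1, changed by -0.75 with Thoc2 and by -4.16 with Thoc5. Neat1, the scaffold of paraspeckles, lay at 0.49, a value named after it was seen. The nuclear RNAs therefore did not move as a group.

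Beside these RNAs and Crebbp, the 12 lowest changes among genes with a symbol held Tnnt2 (-3.14), the histone chaperone partner Hirip3 (-3.10), the GTPase regulator Arhgap5 (-2.96), Pde3a (-2.83) and Bmpr2 (-2.82). Their levels in the passage 3 input were low, from 2.39 CPM for Arhgap5 to 6.19 CPM for Tnnt2, and that of Crebbp was 3.52 CPM. With 50 reads standing for 9.27 CPM in the Thoc2 library of passage 3, genes at such input levels could be measured only if enriched at passage 3, which favours a fall. Tnnt2 encodes cardiac troponin T and is one of the heart muscle markers summed above. It stood at 6.19 and 32.1 CPM in input and immunoprecipitate at passage 3 and at 43.5 and 23.8 CPM at passage 10, so it went from enriched to depleted. The heart myosin gene Myh6 missed the minimum of reads with 0.303 and 65.0 CPM at passage 3 and 0.735 and 2.15 CPM at passage 10. Bmpr2 encodes the type II receptor of bone morphogenetic proteins and Pde3a a phosphodiesterase that breaks down cyclic AMP in smooth muscle. Bmpr2 stood at 3.58 and 41.0 CPM and then at 5.67 and 8.40 CPM, a ratio 7.73-fold lower (5.46 to 10.9). Pde3a stood at 2.97 and 55.8 CPM and then at 4.52 and 10.9 CPM, a ratio 7.76-fold lower, and overlaps Gm10400. Hirip3 overlaps Ino80e. Of the 54 genes without a symbol, the identifiers 100503606 (-4.33) and 100503943 (-4.24) had the lowest changes.

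**Figure D4:**
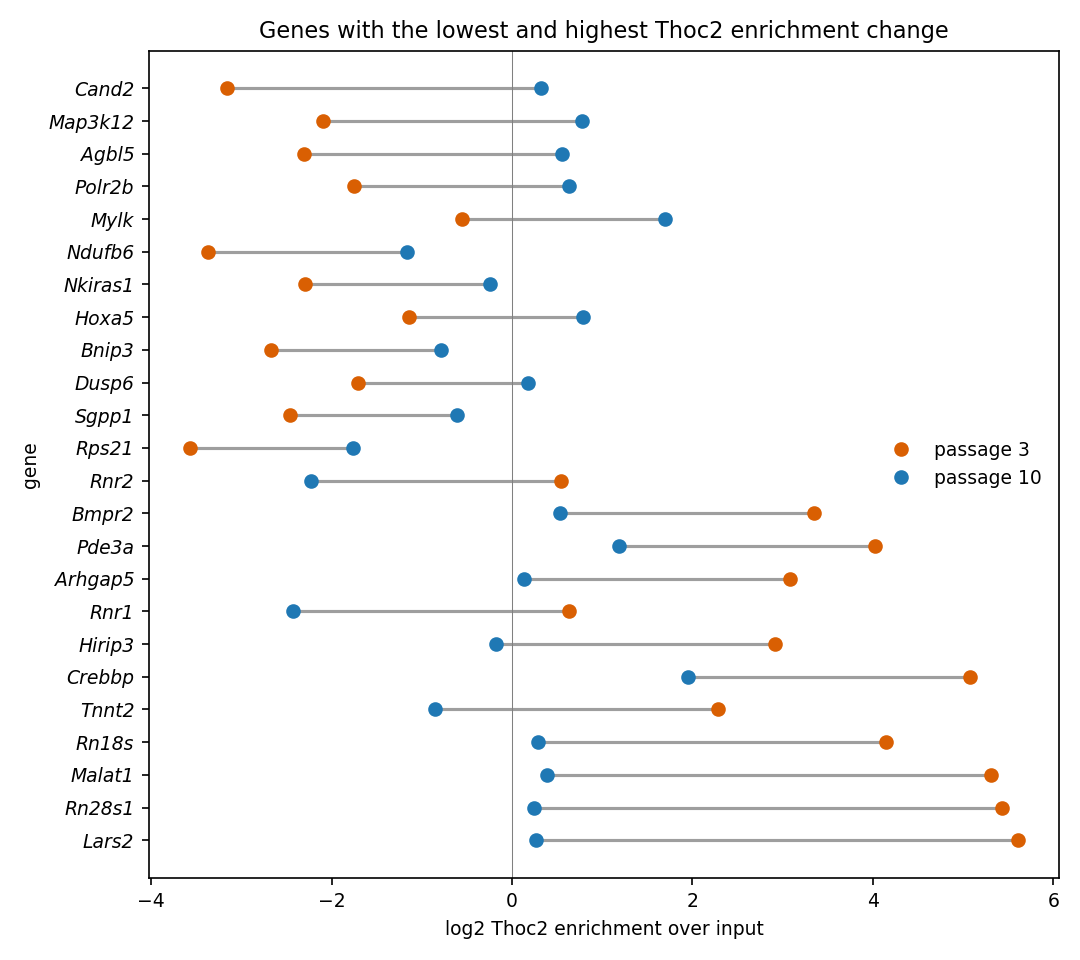
Log2 Thoc2 enrichment over input at passage 3 (orange) and at passage 10 (blue) for the 12 genes with a symbol with the highest change (upper) and the 12 with the lowest (lower), joined by a line per gene. The genes with the highest change were all depleted at passage 3, and those with the lowest change were all enriched at passage 3.

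Among the 12 highest changes of genes with a symbol, 7 overlapped another counted gene. Cand2, which encodes a cullin-binding protein, had the highest change of all, 3.49. It stood at 130 and 14.1 CPM at passage 3 and at 47.0 and 58.9 CPM at passage 10, and its span overlaps that of the abundant ribosomal protein gene Rpl32. Map3k12, a neuronal stress kinase, overlaps Pcbp2 and Tarbp2 and changed by 2.88. Agbl5, a tubulin-modifying carboxypeptidase, overlaps Ost4 and changed by 2.85. Polr2b, which encodes the second largest subunit of RNA polymerase II, overlaps Igfbp7 and changed by 2.39. Because strand use in counting is not given, reads of these pairs cannot be told apart and the 4 values are uncertain. The inputs of these genes differed widely between the passages. Polr2b stood at 1080 CPM in the passage 3 input and at 42.2 CPM in the passage 10 input, against 130 and 150 CPM in 2 RNA-seq libraries of cells with a non-targeting hairpin at passages 4 to 8. Map3k12 stood at 639 and 38.6 CPM in the inputs, against 169 and 189 CPM.

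The genes among the 12 highest without an overlap were Ndufb6 and Rps21, described above, and Bnip3, Dusp6 and Sgpp1. Bnip3 encodes a receptor for the removal of mitochondria, and it stood at 167 and 25.8 CPM at passage 3 and at 33.7 and 19.4 CPM at passage 10. Its ratio was 3.72-fold higher (2.99 to 4.65). Dusp6, a phosphatase of the kinase ERK, stood at 125 and 38.0 CPM and then at 12.5 and 14.2 CPM, a ratio 3.73-fold higher (2.95 to 4.72). Sgpp1, a phosphatase of sphingosine 1-phosphate, changed by 1.85. In Bnip3 and Dusp6 the input fell more than the immunoprecipitate. All 12 had a higher Thoc5 enrichment at passage 10 as well, with changes from 0.83 to 2.32, and 11 of the 12 lowest had a lower one, with Hirip3 (0.62) as the exception. These values share the inputs, which were lower at passage 10 for 11 of the 12 highest and higher for 8 of the 12 lowest. A common direction is therefore favoured, and no more is read from it.

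Of 28 contractile genes of smooth muscle 23 were measured, with a median change of -0.14. They held 1 higher and 4 lower, beside 2.99% higher and 4.69% lower among all genes, and the value of the 1 higher gene is uncertain. Mylk, the kinase that phosphorylates the myosin light chain to start contraction, was higher. It stood at 25.3 CPM in the passage 3 input and 17.0 CPM in its immunoprecipitate, and at 50.0 and 163 CPM at passage 10. It thus went from depleted to enriched, with a ratio 4.85-fold higher (3.85 to 6.14) and a Thoc5 change of 1.66. Its span overlaps that of E130310I04Rik, which makes the value uncertain. Ppp1r12a, the targeting subunit of the phosphatase that removes the same phosphate, had the lowest change of the list. It stood at 9.30 and 78.2 CPM at passage 3 and at 100.4 and 171 CPM at passage 10, a ratio 4.94-fold lower (4.22 to 5.78). Its input rose more than its immunoprecipitate. Filip1l, a filamin-binding protein, changed by -1.29 and overlaps Cmss1. The other 2 lower genes, named after their values were seen, were the actin-binding regulator caldesmon, Cald1 (-1.25), and the actin nucleator leiomodin, Lmod1 (-1.18). The main structural markers Acta2 (-0.03), Tagln (0.43), which overlaps Pcsk7, and Cnn1 (-0.25), also named after they were seen, were not called, and neither was Myl6 (0.84), the essential light chain of myosin and the second highest of the list.

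Regulators of the smooth muscle programme had a median change of -0.32 over 21 genes, with 3 higher and 0 lower. The higher ones were Klf2, a zinc finger factor induced by shear stress (1.61), the Notch ligand Jag1 (1.45) and, named after its value was seen, Gata6 (1.11), which overlaps 1010001N08Rik. Jag1 stood at 205 and 176 CPM at passage 3 and at 20.0 and 47.5 CPM at passage 10, so its input fell more than its immunoprecipitate, and the ratio was 2.77-fold higher (2.40 to 3.19). Mef2a (-0.71) and Mef2d (-0.52), transcription factors of muscle genes, had the lowest values. Of the 21 genes, 8 lay above the median of all genes.

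**Figure D5:**
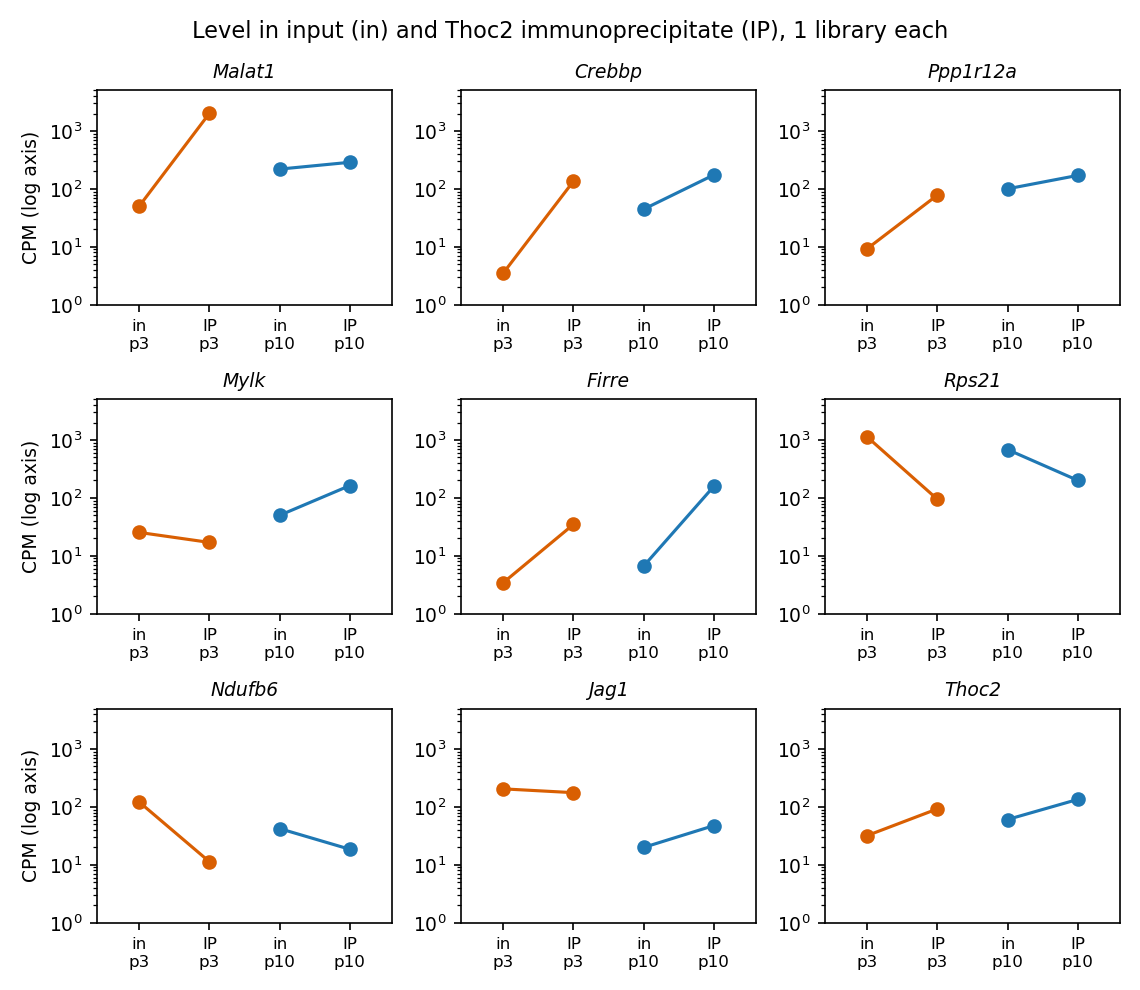
CPM on a log axis in the input and the Thoc2 immunoprecipitate at passage 3 (orange) and passage 10 (blue) for 9 genes, with 1 library per point. The line from input to immunoprecipitate is steeper at passage 3 for Malat1, Crebbp and Ppp1r12a, and it turns from falling to rising for Mylk and Jag1.

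Matrix genes had a median change of 0.00 over 48 genes, with 1 higher and 3 lower, beside 2.99% and 4.69% of all genes. Dcn, which encodes the small proteoglycan decorin, was higher at 1.31. It is short for a matrix gene, at 2084 bases, and its input fell from 1041 to 13.8 CPM. Lamc1, the gamma chain of laminin (-1.05), and Col12a1, a large fibril-associated collagen (-1.05), were lower, as was Col5a3, a chain of type V collagen named after its value was seen. Both Lamc1 and Col12a1 went from enriched to under a log2 enrichment of 1.

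Genes of the immediate early response, transcription factors and regulators induced within minutes of a stimulus, had a median change of 0.53 over 18 genes, and 17 of them lay above the median of all genes. Ier3 (1.43) and Zfp36, which promotes the decay of cytokine mRNAs (1.31), were called higher. The inflammatory list had a median of 0.61 over 25 genes, with 2 higher and 1 lower. Ptgs2, the inducible cyclooxygenase, stood at 1626 and 739 CPM at passage 3 and at 20.1 and 24.3 CPM at passage 10, a ratio 2.66-fold higher (2.30 to 3.08). Cxcl2, a neutrophil chemokine, changed by 1.17 and Nfkb1, a subunit of NF-kB, by -1.06. The median log2 change of the input was -2.18 for the inflammatory genes and -1.54 for the immediate early genes, so these lists had less RNA in the passage 10 input, and the macrophage markers fell as well. The part of either was not tested.

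The mRNAs of the THO complex and of mRNA export had a median change of -0.14 over 25 genes, with 1 higher and 0 lower. Thoc3, a WD-repeat subunit of THO, was the higher one, at 29.3 and 10.4 CPM at passage 3 and at 44.4 and 38.1 CPM at passage 10. Its ratio was 2.42-fold higher (1.81 to 3.29). The other subunits changed by 0.75 for Thoc7, which overlaps Atxn7, by 0.03 for Thoc5, by -0.27 for Thoc1, which overlaps Usp14, by -0.37 for Thoc2 and by -0.48 for Thoc6, which overlaps a pair of genes. The Thoc2 mRNA stood at 32.0 CPM in the passage 3 input and 60.6 CPM in the passage 10 input, and it was enriched at both passages, at 1.51 and 1.14. Nuclear pore genes had a median of -0.04 over 24 genes with 3 lower. Tpr, of the nuclear basket, was among them (-1.64) and overlaps BC003331 and Prg4. So were Nupl1 (-1.78), which overlaps Mir719, and Nup98 (-1.54), which overlaps Pgap2 and was named after its value was seen.

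RNA-processing and Zfp genes are given here beside the shares called over all genes, 2.99% higher and 4.69% lower. Core splicing factors had a median change of -0.05 over 37 genes, with 0 higher and 2 lower, the spliceosome-associated Pnn (-1.39) and Srsf11 (-1.04), while Srsf2, which overlaps Mfsd11, had the highest value, 1.07. Genes with known retained introns, such as CLK kinases and LUC7 factors, had a median of -0.12 over 23 genes. Mdm4, an inhibitor of p53, was the higher one (1.12), with 18.0 CPM in the immunoprecipitate of passage 3 and 37.0 CPM in that of passage 10 over inputs of 7.93 and 7.35 CPM. The splicing factor Rbm25 (-1.06) and the kinase Clk2 (-1.04) were lower. Genes named Zfp, most of them zinc finger transcription factors, had a median of -0.05 over 124 genes with 2 higher and 8 lower. Zfp52 (-2.22) and Zfp51 (-2.12) were the lowest, and Zfp36 and Zfp365 (1.19) the highest.

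The lists that remain are given in brief, and their calls stand beside 2.99% higher and 4.69% lower among all genes. Interferon-stimulated genes had a median change of 0.29 over 23 genes, with 1 higher, the ubiquitin-like modifier Isg15 (1.36), and 1 lower, the ubiquitin ligase Dtx3l (-0.89), which overlaps Parp9. The input level of Isg15 fell from 1477 to 31.8 CPM between the passages and its immunoprecipitate from 328 to 17.9 CPM. Imprinted genes had a median of 0.46 over 10 genes, with Plagl1, a zinc finger factor (1.33), and Dcn higher and Zrsr1 (-1.05), which overlaps Commd1, lower. Nuclear envelope genes had a median of 0.21 over 14 genes, with Syne2 and another nesprin gene, Syne3 (-1.45), lower. DNA replication genes had a median of 0.02 over 13 genes, with the transcription factor E2f1 (1.13) higher, and E2f1 overlaps Necab3. Of 30 mitosis genes 11 were measured, with a median of -0.30 that lay 0.21 above all genes when 10 CPM in each library left 6 of them, and the condensin subunit Ncapd2 (-0.91) lower. The small heat shock protein Hspb8 (1.35) was the higher one of 16 heat shock genes, whose median was -0.0037. The lists of p53 targets (median 0.17, 18 genes), endoplasmic reticulum stress (0.19, 28 genes), sterol and lipid synthesis (0.15, 19 genes) and glycolysis (0.12, 15 genes) held 0 calls in either direction. Of the marker lists, 7 adventitial fibroblast genes had a median of 0.44 with Dcn higher, and 7 endothelial genes one of -0.00096 with 0 calls. The summed level of the adventitial fibroblast markers was lower in the passage 10 input, as given above, but that of Pdgfra barely moved and that of Gsn was higher.

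At the minimum of reads, the 47 genes whose lowest count was 49, just outside the minimum, had a median change of 0.26, and the 41 whose lowest count was 50, just inside it, one of 0.08. The authors' deposited tables list 1046 genes as bound by Thoc2 at passage 3 and 2277 at passage 10, of which 509 and 1408 had 50 reads in each library. Of the 298 genes with a change of at most -1, 180 are in the authors' deposited table of passage 3 and 125 in that of passage 10. Of the 360 genes with a change of at least 1, 3 are in the former and 20 in the latter. Both lists and the change rest on the same libraries. Genes listed at passage 3 are therefore favoured among the lower genes, and no more is read from these overlaps. The authors' list for the later passage was thus the longer one, while the count of genes with a log2 enrichment of at least 1 was larger at the earlier passage. These counts used different criteria, and the authors' lists were not limited to genes with 50 reads. Of the 950 genes that reached 1 at both passages, the authors list 428 at passage 3 and 950 at passage 10. Of the 6214 genes that reached 1 at neither passage, they list 0 and 148. The part of the criteria in this contrast was not tested.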

How the data were processed

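The files of the RIP-seq libraries, per the file headers, give 2 read counts per gene for each antibody and passage, input and immunoprecipitate, as the authors deposited them. Beside them the authors deposited a normalized signal, which is the count multiplied by 1 constant per table, and a ratio of immunoprecipitate to input signal with 2 added above and below. Genes that the authors selected also have a deposited score, the probability of a class, never under 0.3. A gene was listed from 11 reads over input and immunoprecipitate upwards. RNA-seq counts and gene lengths in bases were deposited separately. The submitters' processing notes name the mm9 build and the tools Subread, bcl2fastq, limma, featureCounts, HOMER 4.8.3 and MACS2 2.1.1, without a role for each.

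From the counts, CPM were computed with each library's total in Python 3.11.15 with pandas 2.3.3, numpy 2.4.6 and scipy 1.17.1. Figures were drawn with matplotlib 3.10.9. Scaling alternatives were edgeR 4.0.16 and DESeq2 1.42.0 in R 4.3.3, used for factors only, since with 1 library per group no test was run. The calculation was checked on simulated data. Totals set the precision, and 95% intervals cover counting error only. They were left out where the 4 counts summed to over 100000.

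Members and gene lists were chosen with earlier results of these data known. Named genes were the 12 highest and 12 lowest changes among genes with a symbol, the 2 highest and 2 lowest members of each of 32 lists with at least 5 measured genes, the THO subunits, and genes with a log2 enrichment of at least 1 at one passage and at most -1 at the other. Of the 7896 genes 7842 had a symbol, which was the authors' own or, where they gave none, that of RefSeq for GRCm38.p6. In RefSeq 7820 of the 7896 genes were found, and 1735 overlapped another counted gene.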

Additional observations from a re-analysis of the deposited data

Results flagged for a closer look

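For 10 of the named genes the immunoprecipitate lay above the input at 1 passage and below it at the other, by at least 0.5 on the log2 scale at each, with a change past the fold. These differences between the passages were not tested, since each rests on 1 library per group. The Thoc2 enrichment change was -3.14 for Tnnt2, -3.06 for Rnr1, -2.76 for Rnr2, -2.30 for Ppp2r3c and -2.12 for Zfp51, each enriched at passage 3 and depleted at passage 10. It was 1.93 for Hoxa5, 2.25 for Mylk, 2.39 for Polr2b, 2.85 for Agbl5 and 2.88 for Map3k12, each depleted at passage 3 and enriched at passage 10. Ppp2r3c, a regulatory subunit of protein phosphatase 2A, was the 1 gene that passed 1 in both directions, with a log2 enrichment of 1.15 at passage 3 and -1.15 at passage 10. It stood at 4.98 and 11.7 CPM and then at 11.2 and 4.78 CPM, and overlaps 1110008L16Rik. Hoxa5, a homeobox gene, overlaps Hoxa3, and Zfp51 had a Thoc5 change in the other direction, 1.08.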

How the results depend on the processing

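No paired analysis was possible because each antibody and passage had 1 library and the result comes from no test. The median change moved by over 0.1 with ribosomal RNA and mitochondrial genes left out of the totals (-0.13, with 131 genes at 1 or above and 537 at -1 or below) and with DESeq2 size factors (0.0035). With a minimum of 10 reads 667 and 574 genes passed the fold. With 200 reads 134 and 139 did, the enriched genes numbered 940 at passage 3, 676 at passage 10 and 620 at both, the gap between the highest and lowest quintile of input level was 0.64, and 10 of the 24 extreme genes were kept past the fold. Without overlapping genes 15 of the 24 were. Fewer genes were measured under these settings, 3787 with 200 reads and 6161 without overlapping genes, against 7896. The part of this in the counts was not tested. With 10 CPM in each library, added after seeing the data, 315 genes lay at 1 or above and 138 at -1 or below, 1016 were enriched at passage 3 and 629 at both, and the level gap was 0.35. The length gap kept its direction and moved by less than 0.1 under the 11 alternatives. Of 32 list medians 22 kept their sign under the 4 scalings, and 25 stayed on their side of the median of all genes under all 11 alternatives. The other 7 changed sides under 1 alternative each, where their median minus that of all genes became -0.016 for interferon-stimulated, -0.74 for mitochondrial ribosomal protein and -0.21 for sterol and lipid synthesis genes with 200 reads, 0.10 for nuclear non-coding RNAs without overlapping genes, and 0.21 for mitosis, 0.16 for replication and -0.024 for glycolysis genes with 10 CPM. Of 1481 values of named genes under the alternatives 97 moved by over 0.1 and beyond their counting error and 0 changed sign. The shallow Thoc2 library of passage 3 limits what can be seen at low levels.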
